A study of Homo sapiens with 6 samples.

Results

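AP-1 is a family of transcription factor dimers. The genes described here are 8 that encode AP-1 subunits (the JUN proteins JUN, JUNB and JUND, the FOS proteins FOS, FOSB, FOSL1 and FOSL2, and ATF3), together with the zinc finger factor EGR1 and the nuclear protein gene IER2. They were matched by gene symbol, and each symbol matched 1 Ensembl identifier, so that 10 of 37202 genes are covered. All 10 passed the filter on low counts that left 21509 genes for testing. The libraries came from HK2, an immortalized line of human proximal tubule epithelium grown with fetal bovine serum, and were made with a strand-specific, paired-end Illumina protocol. In the 3 NR3C2-OE libraries the cells had received, by lipofection, a plasmid for overexpression of the mineralocorticoid receptor NR3C2. The 3 Control libraries carry the genotype label normal. The labels do not give what the Control cells received, the time from transfection to harvest or any receptor ligand. Nothing in them states that the libraries are separate cultures. The p-values here set the difference between the groups against the scatter of these 6 libraries within groups, which may be technical. Fewer cells of a type and less RNA per cell cannot be told apart in bulk RNA such as this.

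Immediate early genes are transcribed within minutes of a stimulus such as serum, a growth factor or stress, without the need for new protein. MAP kinases act on factors already bound at their promoters, among them the serum response factor SRF with its ternary complex partners, and the resulting mRNAs are short-lived. JUN proteins pair with each other or with FOS proteins through a leucine zipper and bind AP-1 sites, whereas FOS proteins need a JUN partner. JUND differs from its relatives in that it is made steadily in many resting cells and is only weakly inducible, and it can restrain growth where JUN promotes it. In the kidney tubule this family is known for its response to injury and to stretch.

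The promoters of JUND and EGR1 are shown because these are the members with the smallest p in each direction and because they carry different control elements. Each is the 250 bases before the gene's start, 5′ to 3′ on the gene's strand, from RefSeq on GRCh38.p14. For JUND this is chr19:18281623-18281872, minus strand, with the cAMP response element (TGACGTCA) and the GC boxes (GGGCGG on either strand) in capitals. For EGR1 it is chr5:138465229-138465478, plus strand, with the CArG boxes, the sites that SRF binds, in capitals.
JUND: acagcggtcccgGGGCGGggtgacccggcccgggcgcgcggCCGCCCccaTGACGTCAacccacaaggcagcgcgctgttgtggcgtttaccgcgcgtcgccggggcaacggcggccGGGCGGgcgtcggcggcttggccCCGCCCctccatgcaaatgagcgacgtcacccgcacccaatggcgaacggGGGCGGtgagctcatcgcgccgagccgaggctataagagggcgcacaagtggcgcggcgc
EGR1: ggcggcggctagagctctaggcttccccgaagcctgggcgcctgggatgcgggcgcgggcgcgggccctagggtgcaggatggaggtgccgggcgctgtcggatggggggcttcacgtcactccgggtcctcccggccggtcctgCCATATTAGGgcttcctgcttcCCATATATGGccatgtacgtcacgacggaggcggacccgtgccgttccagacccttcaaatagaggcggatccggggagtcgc
The JUND window held 1 cAMP response element, which starts 200 bases before the gene, and 5 GC boxes. The EGR1 window held 2 CArG boxes, which start 105 and 83 bases before the gene, and no GC box. Both strands were searched. Among 35116 annotated promoters, 1.65% held TGACGTCA, 42.6% held GGGCGG and 1.16% held a CArG box in the same stretch. The AP-1 site TGACTCA (4.2% of promoters) and the receptor palindrome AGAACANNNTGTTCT (0.00285%) were in neither window, nor was the EGR site GCGTGGGCG (0.72%). The table used here holds starts for 9 of the 10 genes, and no other member had a CArG box or TGACGTCA in this window. A match is a string of letters, not a measured binding site.

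Levels were read as FPKM, fragments per kilobase of transcript scaled to library size, which allows genes of different length to be compared. By group mean, FOSL2 had the highest level in both groups, followed by JUN, JUND, JUNB and FOSL1, and FOSB and FOS stood last. FOSL2 averaged 81.9 ± 0.999 FPKM in NR3C2-OE and 78.1 ± 3.57 in Control (SD, n = 3 each, as for all means below). FOS averaged 0.470 ± 0.150 FPKM in NR3C2-OE and 0.599 ± 0.0693 in Control. The 4 leading genes did not overlap their neighbours in the order in either group, and FOSB and FOS overlapped neither each other nor EGR1. The means of IER2, ATF3 and EGR1 lay between those of FOSL1 and FOSB. Their ranges overlapped in part, as IER2 and ATF3 spread widely within each group. The range of IER2 also reached that of FOSL1 in both groups. In some libraries IER2 fell below all FOSB values of its group. These were NR3C2-OE library 3 (1.08 FPKM) and Control libraries 1 (0.611) and 3 (0.808). In Control its range also reached that of FOS.

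**Figure D1:**
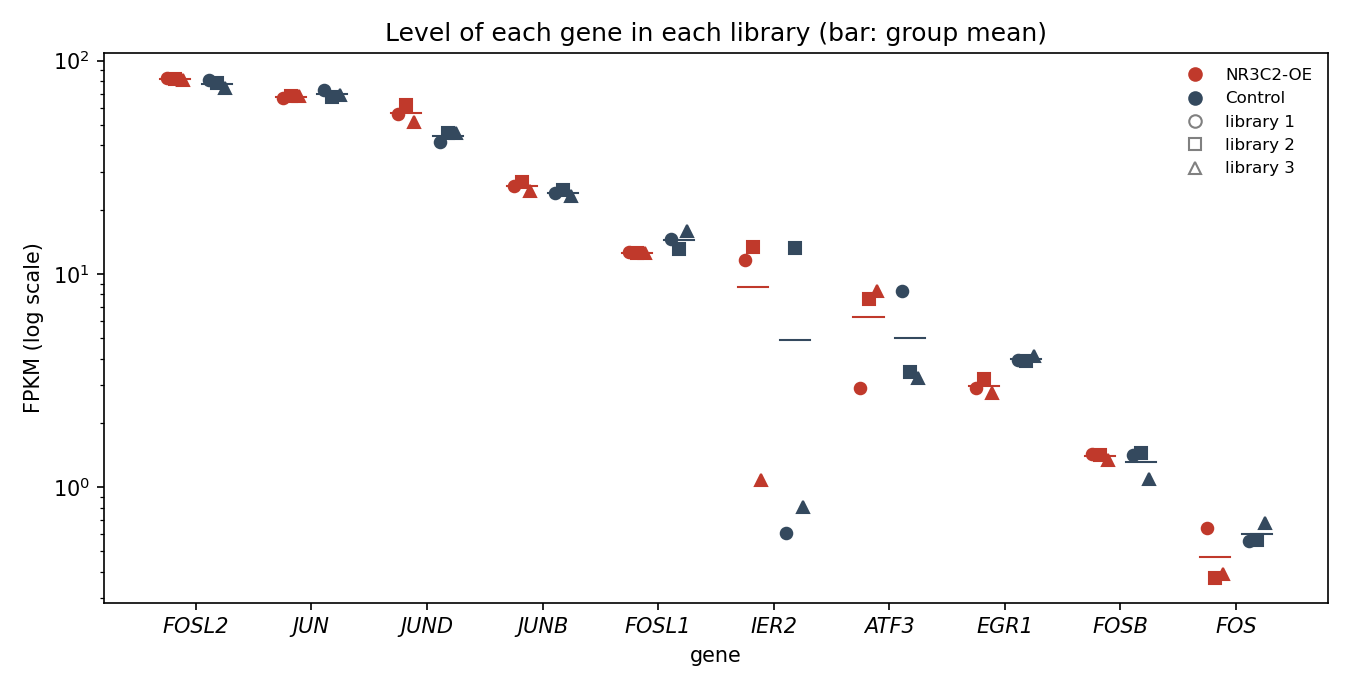
FPKM (log scale) of the 10 genes in each library, with NR3C2-OE in red and Control in dark blue, symbols for libraries 1 to 3 and short bars for group means. FOSL2, JUN, JUND and JUNB lie at 23.3 FPKM or more in every library, while IER2 splits into libraries at 11.6 to 13.4 and libraries at 0.611 to 1.08 FPKM within each group.

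None of the 10 genes passed edgeR's quasi-likelihood test at an adjusted p below 0.05, where 0.0279% of all tested genes did (6 genes, 0.0139% higher in NR3C2-OE and 0.0139% lower). Without adjustment, 1 member had an edgeR p below 0.05 and was higher in NR3C2-OE (JUND, against 4.43% of all tested genes), and 3 were lower (EGR1, FOS and FOSL1, against 4.76%), together 4 of 10 against 9.19%. The DESeq2 Wald test called 1 of the 10, EGR1, where it called 1.83% of the genes to which it gave an adjusted p (0.843% higher in NR3C2-OE and 0.988% lower). On CPM (estimated counts scaled to the TMM library size), the groups did not overlap for 5 members, JUND being higher and EGR1, FOS, FOSL1 and JUN lower. Over all tested genes the groups did not overlap in 16.7%, of which 7.96% were higher and 8.75% lower in NR3C2-OE. On FPKM they did not overlap for 3 members (JUND higher, EGR1 and FOSL1 lower), against 16% of tested genes (9.38% higher and 6.65% lower). The median log2 fold change of the 10 was 0.064, and that of all tested genes 0.00071, with 6 positive and 4 negative values among the members.

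**Figure D2:**
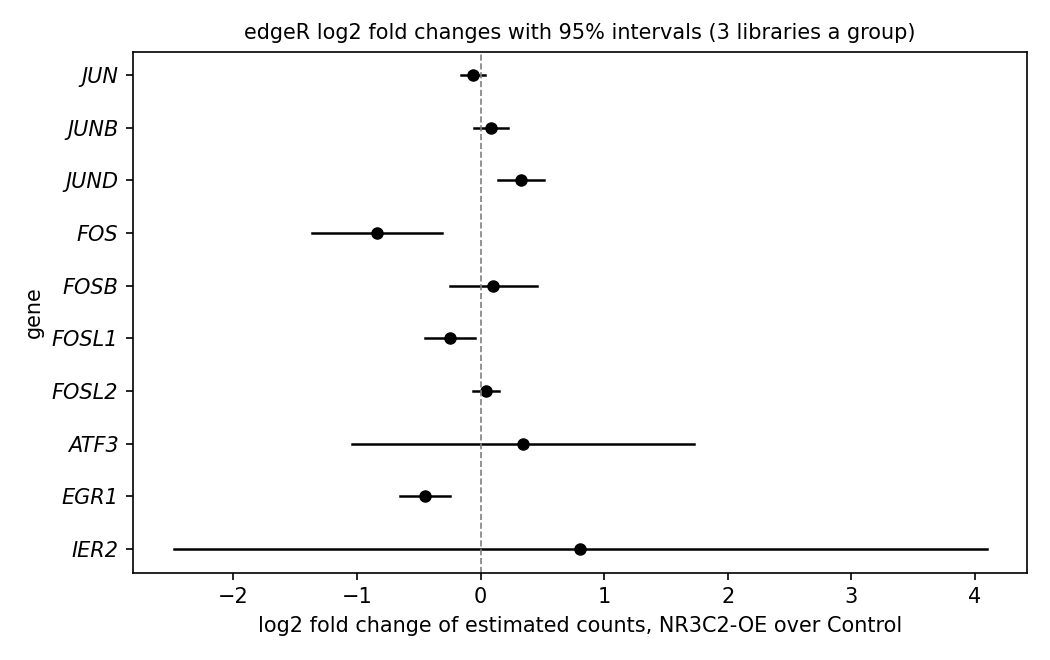
Log2 fold changes of the estimated counts, NR3C2-OE over Control, from edgeR (points) with 95% intervals (lines), for 3 libraries a group. The intervals of JUND, FOS, FOSL1 and EGR1 leave out 0, none of these passed adjustment over all genes, and the interval of IER2 runs from -2.48 to 4.10.

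JUND (ENSG00000130522), the steadily made JUN protein, had its own highest values in the NR3C2-OE libraries. Its FPKM was 56.2, 61.8 and 51.8 in NR3C2-OE libraries 1, 2 and 3, against 41.7, 45.7 and 45.8 in Control libraries 1, 2 and 3. Every NR3C2-OE library thus lay above every Control library. The means were 56.6 ± 5.01 in NR3C2-OE and 44.4 ± 2.32 in Control, a ratio of 1.27. The log2 fold change of the counts was 0.33 (SE 0.077, 95% interval 0.14 to 0.52). Neither edgeR (adjusted p = 0.338) nor the DESeq2 Wald test (adjusted p = 0.0515) called it. With 1 library left out at a time the log2 fold change ran from 0.27 to 0.39 (edgeR adjusted p 0.243 to 0.637). JUND is a gene of 1 exon, and its transcript is rich in G and C (69.7%). The 196 tested genes within 2 percentage points of that GC content had a median log2 fold change of 0.025.

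JUN (ENSG00000177606), the founding subunit, which promotes growth in many cells, had the highest level of the JUN genes. It had 66.6, 67.9 and 68.2 FPKM in NR3C2-OE, against 72.5, 67.6 and 68.7 FPKM in Control. Its FPKM overlapped, whereas its CPM did not, with 260.2, 260.7 and 263.1 in NR3C2-OE and 283.2, 265.5 and 271.2 in Control. The log2 fold change was -0.06 (SE 0.040, 95% interval -0.16 to 0.03). JUNB (ENSG00000171223), which often opposes JUN, had 25.9, 26.9 and 24.4 FPKM in NR3C2-OE, against 23.9, 24.6 and 23.3 in Control. These overlapped, and the log2 fold change was 0.08 (SE 0.056, 95% interval -0.05 to 0.22). JUNB lies opposite HOOK2 in GENCODE 29. HOOK2 had 14.9 to 18.4 CPM, and since the counting program is not given in the sources used here, reads of the pair cannot be told apart with certainty. FOSB likewise lies opposite part of ERCC1 (37.7 to 43.3 CPM).

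Among the JUN proteins, the balance of mRNAs lay further toward JUND in NR3C2-OE. JUND made up 37.8%, 39.4% and 35.9% of the summed FPKM of the 3 JUN genes in the NR3C2-OE libraries, against 30.2%, 33.1% and 33.2% in the Control libraries. JUN made up 44.8%, 43.4% and 47.2% in NR3C2-OE, against 52.5%, 49.0% and 49.9% in Control. Neither share overlapped between the groups, while that of JUNB did (17.2% ± 0.257 in NR3C2-OE and 17.3% ± 0.491 in Control). The shares of the 3 genes add up to the whole, so the lower share of JUN is not a result separate from the higher share of JUND. The FPKM of JUN itself overlapped between the groups. The sum itself was 149.9 ± 6.23 FPKM in NR3C2-OE and 137.9 ± 0.134 in Control.

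Of the 4 FOS genes, FOS and FOSL1 had negative and FOSB and FOSL2 positive log2 fold changes, and none passed edgeR. FOS (ENSG00000170345), the classic serum-induced member, had the lowest level of the 10 genes. It had 60, 56 and 48 estimated counts in NR3C2-OE libraries 1, 2 and 3, against 97, 101 and 186 in Control. In CPM these were 0.754, 0.711 and 0.527 in NR3C2-OE and 1.06, 1.08 and 1.42 in Control, without overlap, and the log2 fold change was -0.84 (SE 0.22, edgeR adjusted p = 0.372). Its FPKM did overlap, with 0.643, 0.375 and 0.392 in NR3C2-OE, against 0.558, 0.561 and 0.680 in Control. NR3C2-OE library 1 lay below every Control library in CPM, while its FPKM of 0.643 lay above those of Control libraries 1 and 2. The transcript length implied by the pair of values (the estimated count divided by the FPKM and by the library total) was 1166, 1919 and 1355 bases in NR3C2-OE and 1891, 1913 and 2065 in Control. For JUND the same quantity stayed between 2301 and 2317 bases, and for EGR1 between 3742 and 3768. The counts and the FPKM of FOS therefore give different sizes for the difference between the groups. With limma-trend the log2 fold change of FOS was -0.32 on log2(FPKM + 0.1) (unadjusted p = 0.182) and -0.13 on log2(FPKM + 1) (unadjusted p = 0.175), so its place among the lower members rests on the counts.

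FOSL1 (ENSG00000175592), which encodes FRA-1 and is often raised in growing and migrating epithelial cells, had 12.6, 12.5 and 12.5 FPKM in NR3C2-OE, against 14.5, 13.04 and 15.8 in Control. All 3 NR3C2-OE libraries lay below all Control libraries and close together, and Control library 2 lay nearest to them. The log2 fold change was -0.24 (SE 0.084, edgeR adjusted p = 0.486). FOSL2 (ENSG00000075426), which encodes FRA-2, had 82.9, 81.7 and 81.0 FPKM in NR3C2-OE and 81.6, 78.2 and 74.4 in Control. The groups overlapped, and the log2 fold change was 0.04 with a 95% interval from -0.06 to 0.15. FOSB (ENSG00000125740), a serum-induced relative of FOS, had 1.42, 1.41 and 1.34 FPKM in NR3C2-OE and 1.41, 1.44 and 1.09 in Control, with a log2 fold change of 0.10 (SE 0.14). Of the summed FPKM of the 4 FOS genes, FOSL2 held 85.0% ± 0.102 in NR3C2-OE and 82.7% ± 1.56 in Control, and FOSL1 held 13.02% ± 0.117 in NR3C2-OE and 15.3% ± 1.66 in Control. FOS and FOSB together were a small remainder in each library.

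ATF3 (ENSG00000162772), a stress-induced partner of JUN proteins that often represses, and IER2 (ENSG00000160888), a serum-induced nuclear protein, each split into high and low libraries that crossed the groups. IER2 had 11.6, 13.4 and 1.08 FPKM in NR3C2-OE, against 0.611, 13.3 and 0.808 in Control. NR3C2-OE libraries 1 and 2 and Control library 2 were the high ones. Within a group its CPM spanned 12.4-fold in NR3C2-OE and 21.9-fold in Control, and of the 11958 genes with a mean of at least 5 CPM, 5.76% spanned more than 10-fold within a group. The log2 fold change of 0.81 (SE 1.36) had a 95% interval from -2.48 to 4.10, and it was 3.59 without Control library 2 (edgeR unadjusted p = 0.0211, adjusted p = 0.665). STX10, a neighbour that does not overlap IER2, stayed between 15.2 and 17.98 CPM, and an overlapping gene on the opposite strand (ENSG00000267598) had 0 estimated counts in 5 libraries and 5 in Control library 3. ATF3 had 2.92, 7.65 and 8.32 FPKM in NR3C2-OE, against 8.27, 3.48 and 3.26 in Control. Here NR3C2-OE libraries 2 and 3 and Control library 1 were high, so the libraries that were high for ATF3 were not those that were high for IER2, with NR3C2-OE library 2 high for both. The log2 fold change of ATF3 was 0.34 (SE 0.57, 95% interval -1.04 to 1.72), and it ranged from 0.06 to 0.99 when 1 library was left out.

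EGR1 (ENSG00000120738), a zinc finger factor induced through SRF by nearly every growth signal, was lower in each NR3C2-OE library. Its FPKM was 2.91, 3.21 and 2.77 in NR3C2-OE, against 3.93, 3.88 and 4.14 in Control. The groups were well apart and each was tight, with means of 2.96 ± 0.226 in NR3C2-OE and 3.98 ± 0.135 in Control. The log2 fold change was -0.45 (SE 0.084, 95% interval -0.65 to -0.25). It had the smallest p of the 10 genes, at rank 115 of all tested genes, and did not pass edgeR (adjusted p = 0.263), whereas DESeq2's Wald test called it (adjusted p = 0.00108). Without 1 library at a time the log2 fold change ran from -0.50 to -0.40 (edgeR adjusted p 0.318 to 0.548). NAB1 and NAB2, corepressors that bind EGR1, had log2 fold changes of -0.05 (SE 0.053) and -0.0024 (SE 0.23).

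JUND was then set against each other AP-1 gene within a library, as the log2 CPM of JUND minus that of the other gene, so that library scaling cancels. The difference was larger in NR3C2-OE for all 7 genes in the mean, and the groups did not overlap for 5 of them. Set against each of the other 21508 tested genes in the same way, JUND had the larger mean difference in NR3C2-OE for 88.9%, and the groups did not overlap for 46.1% (45.6% higher and 0.451% lower in NR3C2-OE). The counts for the AP-1 genes are therefore not particular to them, since JUND itself did not overlap between the groups. JUND relative to JUN stood at -1.0004, -0.89 and -1.15 log2 units in NR3C2-OE, against -1.55, -1.32 and -1.34 in Control. Every NR3C2-OE value lay above every Control value. CPM is not per length, so the shift between groups is what these differences show, not which gene has the higher level. The means differed by 0.39 (two-sided exact permutation p = 0.10). Relative to JUNB the values were 1.19, 1.27 and 1.16 in NR3C2-OE, against 0.88, 0.97 and 1.05 in Control (difference of means 0.24, exact permutation p = 0.10).

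Against the FOS genes the shift of JUND was 1.15 log2 units for FOS, 0.57 for FOSL1 and 0.28 for FOSL2, each without overlap and each with an exact permutation p of 0.10. Relative to FOSL2 the values were -2.35, -2.18 and -2.43 in NR3C2-OE and -2.75, -2.56 and -2.49 in Control, so the nearest libraries of the 2 groups lay close together. The shift relative to FOSB was 0.22 and the groups overlapped (exact permutation p = 0.40), with 4.64 ± 0.0948 in NR3C2-OE and 4.42 ± 0.246 in Control. Relative to ATF3 it was 0.0051, with 3.40 ± 0.998 in NR3C2-OE and 3.40 ± 0.911 in Control (exact permutation p = 1.0). Its sign turned without NR3C2-OE library 1 (-0.56) or Control library 1 (-0.52). With 3 libraries a group no p can go below 0.10, and the 7 comparisons share the values of JUND, so they are not separate evidence. The size for FOS depended on the scale, at 0.67 on log2(FPKM + 0.1) and 0.47 on log2(FPKM + 1).

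**Figure D3:**
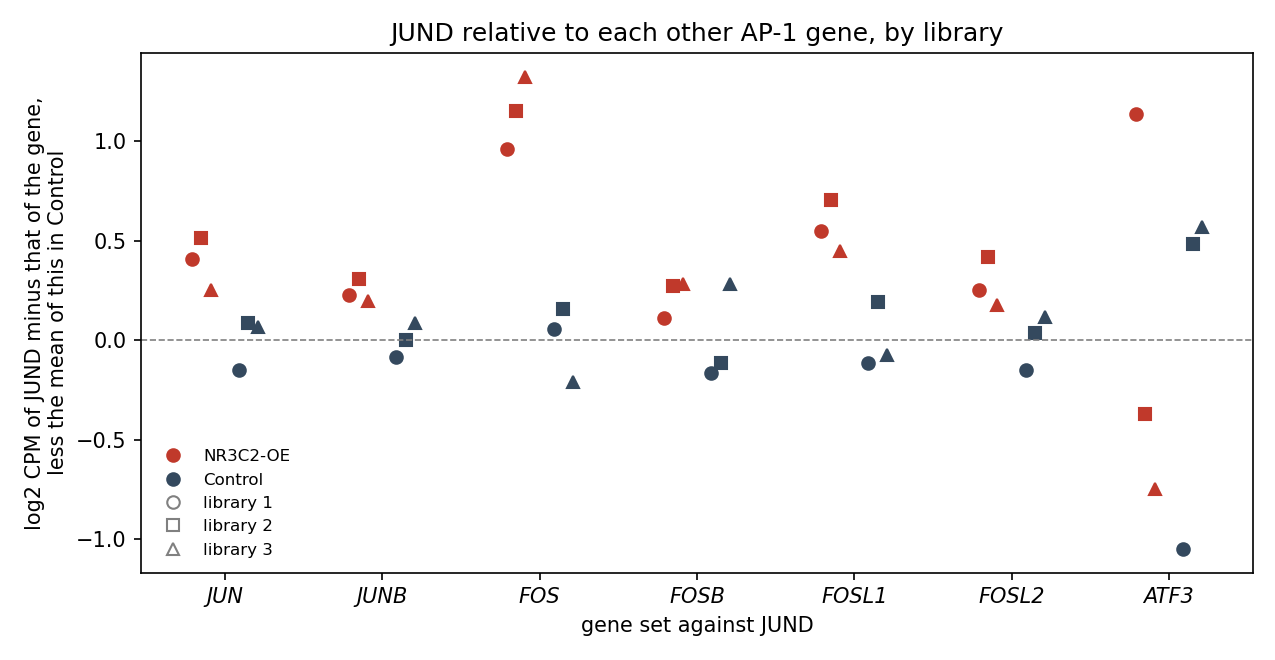
Log2 CPM of JUND minus that of each other AP-1 gene in each library, shown relative to its mean in Control, with NR3C2-OE in red left of Control in dark blue and symbols for libraries 1 to 3. For JUN, JUNB, FOS, FOSL1 and FOSL2 all NR3C2-OE points lie above all Control points, while for FOSB and ATF3 they overlap.

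The genes whose profiles over the 6 libraries lay nearest to that of JUND, by root mean square distance of centred log2 CPM among 8434 genes with a mean of at least 5 FPKM, were LYPLA1, ZNF544 and VEGFB (0.031, 0.031 and 0.039 log2 units, where the profile of JUND itself has a size of 0.18). VEGFB, a growth factor of the VEGF family, had 12.1, 12.9 and 11.1 FPKM in NR3C2-OE, against 8.88, 8.97 and 9.68 in Control. The nearest to EGR1 were ZNF687, DUSP1 and INCENP (0.052, 0.060 and 0.063 log2 units, size of EGR1 itself 0.23). DUSP1, a phosphatase that switches off MAP kinases and is itself an immediate early gene, had 42.5, 44.9 and 43.7 FPKM in NR3C2-OE, against 59.5, 54.9 and 61.3 in Control. These lists describe 6 libraries and were given no test.

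Beyond the 10 genes, of 21 tested immediate early genes 7 lay above and 14 below a log2 fold change of 0 (median -0.15). None passed edgeR over all genes. An unadjusted edgeR p below 0.05 was found for 1 higher and 6 lower genes (4.43% and 4.76% of all tested genes), and 2 lower genes were called by DESeq2 (0.988% of all genes with its adjusted p). These were DUSP1 (log2 fold change -0.44, SE 0.055, DESeq2 adjusted p = 1.8e-06) and SRF itself (-0.32, SE 0.044, DESeq2 adjusted p = 3.33e-05). SRF had 14.9, 15.1 and 15.7 FPKM in NR3C2-OE, against 18.7, 18.4 and 19.2 in Control, and the groups lay apart. BTG1, an antiproliferative gene, had 16.4, 16.3 and 14.4 FPKM in NR3C2-OE and 12.5, 13.3 and 13.03 in Control (log2 fold change 0.26, SE 0.065). The SRF partners ELK4 and ELK1 had log2 fold changes of 0.08 (SE 0.052) and 0.05 (SE 0.064), and the SRF coactivators MRTFA and MRTFB had -0.04 (SE 0.076) and -0.06 (SE 0.46), none of which passed edgeR. In that list of 9 genes 4 values were positive and 5 negative, and SRF was the only one with an unadjusted edgeR p below 0.05.

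Of 13 tested further factors with a basic leucine zipper that can pair within AP-1 or bind nearby sites, none passed edgeR. MAF stood above Control in every library (10.7, 9.14 and 8.13 FPKM in NR3C2-OE, against 7.39, 7.51 and 7.64 in Control, log2 fold change 0.20, SE 0.067), and CREB5 was lower in CPM while its FPKM overlapped (-0.14, SE 0.053). The unadjusted edgeR p was below 0.05 for 1 higher and 2 lower genes of this list (4.43% and 4.76% of all tested genes). MAF and CREB5 were among them. Among 23 kinases upstream 14 values were positive and 9 negative (median 0.018), and none was called by edgeR or DESeq2. Of the 23, 1 had an unadjusted edgeR p below 0.05 and was higher in NR3C2-OE, against 4.43% of all tested genes (4.76% were lower). That was the p38 kinase gene MAPK14, which had 20.3, 21.4 and 8.56 FPKM in NR3C2-OE, against 8.44, 8.35 and 8.52 in Control, so that NR3C2-OE library 3 was like Control. The kinase kinases MAP2K6 and MAP2K4 had log2 fold changes of 0.78 (SE 0.37) and -0.19 (SE 0.11).

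Of 17 tested genes known as AP-1 targets, 8 lay above and 9 below a log2 fold change of 0 (median -0.05). None passed edgeR. An unadjusted edgeR p below 0.05 was found for 1 higher and 7 lower genes (4.43% and 4.76% of all tested genes), and 3 lower genes were called by DESeq2 (0.988% of all genes with its adjusted p). Among them were the cytokine IL11 (-0.56, SE 0.071) and the EGF receptor ligand HBEGF (-0.51, SE 0.069). HBEGF had 27.6, 28.1 and 32.4 FPKM in NR3C2-OE, against 40.3, 42.0 and 41.5 in Control. Its groups did not overlap. The 8 genes of handling and stress all had negative log2 fold changes (median -0.20), and their summed FPKM was 634 to 869 in NR3C2-OE and 1008 to 1248 in Control. HSPA8 made up most of that sum, and the other 7 genes summed to 129.2, 148 and 138 FPKM in NR3C2-OE, against 177, 158 and 157 in Control. None passed edgeR, and 4 of 8, all lower, had an unadjusted edgeR p below 0.05, against 4.76% of all tested genes. DESeq2 called 2 of the 8, both lower, against 0.988% of all genes with its adjusted p. These were the chaperone gene HSPA8 (-0.48, SE 0.080) and the stress gene GADD45A (-0.39, SE 0.067). HSPA1A, which has a near-identical copy and whose counts are uncertain for that reason, had -0.22 (SE 0.078). The part that this difference has in the values of EGR1, FOS and FOSL1 was not tested.

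**Figure D4:**
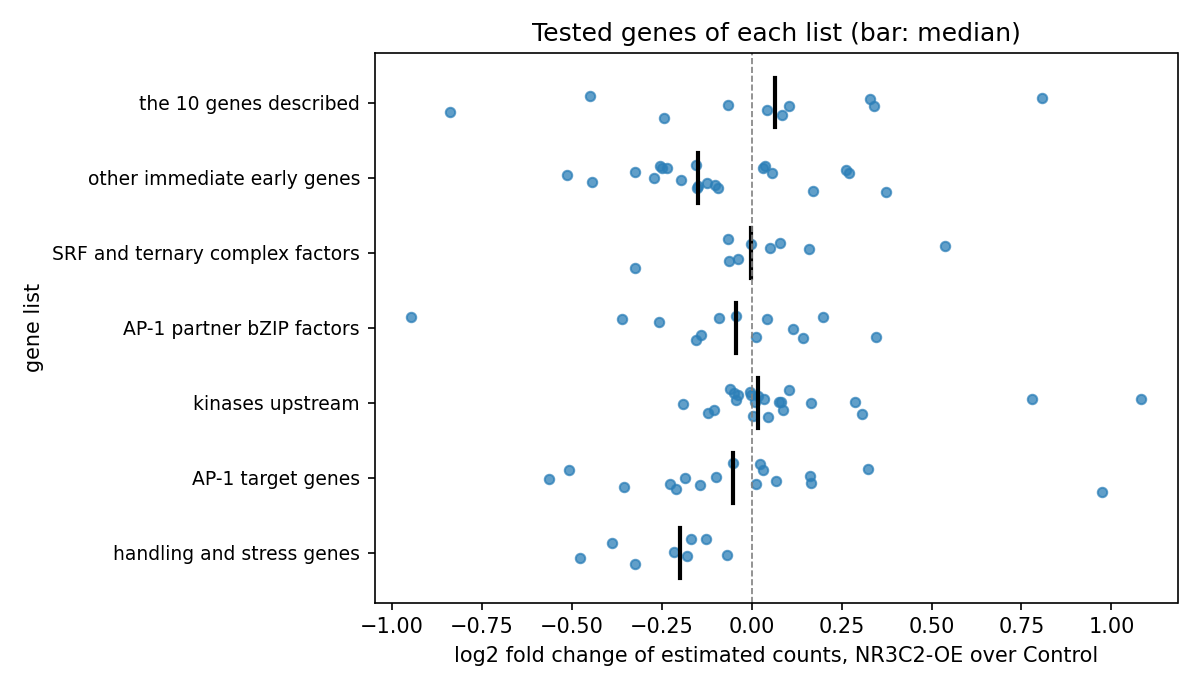
Log2 fold changes (NR3C2-OE over Control, estimated counts, edgeR) of the tested genes of the 10 genes described and of 6 other lists (markers not drawn), 1 point a gene, with the median as a black bar. The medians drawn lie between -0.20 for handling and stress genes and 0.064 for the 10 genes described, and no gene of these lists passed edgeR's test.

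As a check of the labels, NR3C2 had 12.1, 6.95 and 7.41 FPKM in NR3C2-OE and 5.97, 6.26 and 5.16 in Control, a log2 fold change of 0.68 (SE 0.23, edgeR adjusted p = 0.486), and the values do not separate plasmid from cellular transcripts. The library totals ran from 77737375 to 132533971 estimated counts. Of 12 proximal tubule markers 8 were analysed here. PAX8 (144.6 to 157 FPKM in NR3C2-OE and 123 to 139.5 in Control) and GGT1 (51.1 to 56.7 in NR3C2-OE and 16.3 to 45.5 in Control) were the highest. AQP1 was listed at 0 in all NR3C2-OE libraries and at 0.0128 to 0.0658 FPKM in Control, and CUBN reached at most 0.020 FPKM in any library. The summed level of the 8 markers was 203 to 216 FPKM in NR3C2-OE and 159 to 176 in Control, without overlap. PAX8 and GGT1 made up most of that sum. Of the 6 markers tested, 4 had positive and 2 negative log2 fold changes, and none had an unadjusted edgeR p below 0.05. The part of the summed level in the values above was not tested. Epithelial keratins were high, with KRT8 at 198 ± 6.2 FPKM in NR3C2-OE and 199 ± 6.38 in Control, and KRT19 at 104.2 to 116 in NR3C2-OE and 107 to 111 in Control. The epithelial cadherin gene CDH1 was near absent, at 0.082 to 0.15 FPKM in NR3C2-OE and 0.080 to 0.16 in Control. Summed markers of other cells were low and overlapped between the groups. For fibroblasts (6 of 7 analysed, mainly COL1A1 and LUM) they came to 14.3 to 15.03 FPKM in NR3C2-OE and 13.03 to 15.5 in Control. For leukocytes (3 of 6, mainly CSF1R and CD14) they came to 1.14 to 1.33 in NR3C2-OE and 1.19 to 1.30 in Control. For endothelium (5 markers) they came to 0.023 to 0.088 in NR3C2-OE and 0.071 to 0.15 in Control. Over all 6 libraries CDH5 had the highest mean of these 5.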

How the data were processed

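Per the submitters' processing notes, cutadapt 1.2.1 trimmed the adapters. For the aligner, counting program, genome build and gene annotation, the entry is "not given in the sources used here". The authors deposited 1 table with an FPKM value and an estimated count per gene and library. The FPKM are scaled to transcript length and library size by the authors, as the deposited table's name says. The estimated counts deposited by the authors are whole numbers, so no rounding was needed, but values of 4 (8694) outnumber those of 3 (5772) and 5 (5504), and they are not tallies of single reads. Intervals therefore rest on the spread between libraries. All 36466 Ensembl identifiers matched a symbol, and 736 genes with assembly names (2.88% to 2.98% of counts) stayed in totals and tests.

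Counts were tested with glmQLFit and glmQLFTest of edgeR 4.0.16 (R 4.3.3), filterByExpr and TMM, with the group as the only term, all 6 libraries, and Benjamini-Hochberg adjustment over 21509 genes. Standard errors came from the F statistics, and 95% intervals used 6.36 degrees of freedom. JUND was compared within libraries on log2 CPM (prior count 2) with exact permutation tests. Alternatives used DESeq2 1.42.0, limma 3.58.1 on log2(FPKM + 1) or log2(FPKM + 0.1), voom, other filters and scalings, counts divided by 4, a replicate block and leaving out each library. The edgeR step was tested on simulated data.

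The members and the 14 gene lists were chosen with earlier results of these data known. Named were the members, NR3C2, the 3 genes of smallest p per list, the 2 highest or absent markers, and the 3 profiles nearest to JUND and EGR1, and some genes that this rule names are not reported here. CDH1, CUBN, MRTFA, MRTFB, STX10 and the other genes overlapping members were named after their values were seen. GC content and exons came from GENCODE 29 (known for 91.9% of tested genes), promoters from RefSeq.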

Additional observations from a re-analysis of the deposited data

How the results depend on the processing

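The count of genes called over the whole table was 6 with edgeR and moved to 317 with the DESeq2 Wald test and to 11 with limma-trend on log2(FPKM + 0.1), and it ran from 5 to 18 when 1 library was left out (13 without Control library 2, and 14, 18 and 16 without NR3C2-OE library 1, 2 and 3). DESeq2 called 1 of the 10 genes (EGR1), and none of the other 15 alternatives called any, although 4 had an unadjusted edgeR p below 0.05. No pairing by replicate number was seen. The deviations of same-number libraries from their group means correlated at 0.0038 to 0.027, and those of different-number libraries at -0.037 to 0.023. Such values cannot exclude a pairing, and the labels state none. With the replicate block edgeR called 0 genes (1490 at an unadjusted p below 0.05), and JUND kept a log2 fold change of 0.33. A sign-flip test of the 3 same-number differences, in the same block, can give no p below 0.25. The mean of these differences equals the difference of the group means by arithmetic (0.39 for JUND relative to JUN). It therefore cannot show whether the shift depends on pairing. The sign of the FOSB log2 fold change turned without Control library 3 (-0.0029) and reached 0.19 without NR3C2-OE library 3, and that of JUND relative to ATF3 ran from -0.56 to 0.38 and relative to FOSB from 0.14 to 0.36 with 1 library left out. The causes of these moves were not tested. The direction of JUND (0.27 to 0.39), EGR1, FOS, FOSL1, FOSL2, JUN, JUNB, ATF3 and IER2 held under every alternative that gave a value, and FOS had none at a mean of at least 1 FPKM. FOS is limited by low counts, and ATF3 and IER2 by the spread within groups.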
